A study of Mus musculus with 6 samples.

Results

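The fibrillar collagens form the banded fibrils of the extracellular matrix, and 10 of their genes were followed here in freshly isolated muscle stem cells (MuSCs), *Col1a1*, *Col1a2*, *Col2a1*, *Col3a1*, *Col5a1*, *Col5a2*, *Col5a3*, *Col11a1*, *Col11a2* and *Col27a1*. They are 10 of the 25166 genes of the deposited RNA-seq table, matched by symbol. The family was chosen by its values in these libraries, namely because *Col1a2* stood higher in the libraries labelled Sirt6mKO while *Col3a1* did not. The difference between the groups is therefore described for these genes and not tested. Another fibrillar collagen gene, *Col24a1*, is given for completeness.

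The libraries fall into 2 groups of 3, Sirt6mKO and Ctrl. In Sirt6mKO, the Pax7-ICNCre allele drives constitutively active Cre in the myogenic lineage and removes the floxed exons 4 to 6 of *Sirt6*. The controls are called wild type by the labels and *Sirt6* fl/fl without Cre by the legends of the study, and the labels give the strain C57BL/6 for all libraries. The legends give male mice of 12 weeks, without naming the mouse behind each library. Cells of limb and trunk muscle were depleted of Sca1, CD45 and CD31 positive cells and sorted as Integrin-a7+/CD34+ or by a reporter, Sca1 being known from interstitial fibroblasts, CD45 from leukocytes and CD31 from endothelial cells. The reporters were GFP of Pax7/zsGreen mice or YFP of mice that carry Pax7-ICNCre. The methods do not name the route of each library. A route that differed between the groups cannot be told apart from the genotype. Each library was made from the total RNA of 100 to 200 sorted cells.

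Each fibrillar procollagen is a trimer of chains wound into a long triple helix, which needs a glycine in each turn of the repeat. Type I collagen joins the products of *Col1a1* and *Col1a2*, type III collagen is made from *Col3a1* alone, and type V collagen, which starts fibrils and controls their width, from *Col5a1* with *Col5a2* and at times *Col5a3*. Type XI (*Col11a1*, *Col11a2*) and type II (*Col2a1*) are best known from cartilage, and type XXVII (*Col27a1*) from growth plates. In muscle, fibroblasts and tendon cells are the main source of type I collagen, while MuSCs are known to make type V collagen as a part of their own niche.

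Among the members, the coding sequences share a run of triplets of codons that each open with a glycine codon. In the GENCODE transcripts of GRCm38 this run held 337 to 344 triplets in 9 of the 10 members, with 344 in *Col3a1* and 339 in *Col1a2*. The exception was *Col27a1*, with 217, and *Col24a1* was like it, with 216. The sequence around the start codon sets some members apart. These sequences are shown because the protein LARP6 is known to bind a stem-loop there in the mRNAs of type I collagen. Their part in the differences between the groups was not tested. The lines give 30 bases of the sense strand, written as DNA, with the start codon in capitals, and *Col5a1* is shown as a member without the shared bases.
*Col1a1*: gtctagggtctagacATGttcagctttgtg
*Col1a2*: gtctaagtggtagacATGctcagctttgtg
*Col5a2*: gtctcatatttagacATGatggcaaactgg
*Col5a1*: gcgcaccccgccggcATGgacgtacacacc

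Of the windows shown, that of *Col1a2* had 25 of the 30 bases in common with *Col1a1*, that of *Col5a2* 15 and that of *Col5a1* 8. The string TAGACATG, the start codon with the 5 bases before it, was present in the windows shown of *Col1a1*, *Col1a2* and *Col5a2*. It was found at the start codon of 16 of 20217 coding genes (0.08%).

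The bases upstream of *Col1a2* and *Col3a1* were compared as well. RefSeq promoters were at hand for 7 of the 10 members (GRCm38.p6). The 250 bases before the RefSeq start are shown for the pair that the family was chosen for, with matches to 3 short motifs in capitals. These are the CCAAT box, searched as CCAAT and on the opposite strand as ATTGG, the GC box, searched as GGGCGG and on the opposite strand as CCGCCC, and the TATA box, searched on the sense strand as TATAAA.
*Col1a2*, chr6:4505368-4505617, + strand: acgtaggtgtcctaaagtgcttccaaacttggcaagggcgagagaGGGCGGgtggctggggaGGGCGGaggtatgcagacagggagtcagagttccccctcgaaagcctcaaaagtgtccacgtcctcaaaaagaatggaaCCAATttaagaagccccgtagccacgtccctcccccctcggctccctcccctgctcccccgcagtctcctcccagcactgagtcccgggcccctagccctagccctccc
*Col3a1*, chr1:45311288-45311537, + strand: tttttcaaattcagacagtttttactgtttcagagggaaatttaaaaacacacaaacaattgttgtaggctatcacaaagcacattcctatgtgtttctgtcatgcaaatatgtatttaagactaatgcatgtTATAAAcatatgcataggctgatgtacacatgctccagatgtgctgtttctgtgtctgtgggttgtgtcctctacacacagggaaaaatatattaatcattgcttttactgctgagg

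The *Col1a2* window held 1 CCAAT box at 109 bases before the start and 2 GC boxes, at 188 and 205, with 62.0% G and C. The *Col3a1* window held TATAAA at 117 bases before the start, neither of the other strings, and 35.2% G and C. Of 27025 promoter windows in all, 34.5% held a CCAAT box, 32.9% a GC box and 8.1% TATAAA, and 5.8% had a G and C content at or below that of *Col3a1*. These matches describe the letters only. The table places the start of *Col1a2* at 4504814 on chromosome 6, upstream of the RefSeq start at 4505618, so that the window shown lies within the gene as the table bounds it.

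The deposited value of a gene, called signal here, is its reads divided by a factor of the library and rounded. Between 1267027 reads (Ctrl replicate 3) and 3209964 reads (Ctrl replicate 2) stood behind the libraries. A signal from 3 reads, used here as the floor for genes near 0 and covering counting error only, was 2.19 to 5.38. *Sirt6*, counted over the whole gene, had a signal of 19, 20 and 13 in Sirt6mKO and of 18, 17 and 20 in Ctrl. As these values hold the exons that were not removed, they do not check the labels, and the groups are named as labelled. In bulk RNA, fewer cells of a type and less RNA per cell cannot be told apart.

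Type I collagen showed the widest difference between the groups among the abundant members. *Col1a2* (ENSMUSG00000029661, chromosome 6, 4504814 to 4541544) stood at a signal of 782, 1299 and 1162 in Sirt6mKO and of 173, 63 and 65 in Ctrl, with replicates 1, 2 and 3 in this order here and throughout. Every Sirt6mKO library lay above every control, and Ctrl replicate 1 was the highest of the controls. The means were 1081 ± 268 and 100.3 ± 62.9 (SD, n = 3 per group), a ratio of 10.8, and the fitted log2 difference was 3.55 with a standard error of 0.31. *Col1a1* (ENSMUSG00000001506, chromosome 11, 94936224 to 94953042) had a signal of 420, 1063 and 645 in Sirt6mKO and of 487, 128 and 81 in Ctrl. Here the groups overlapped, since Ctrl replicate 1 stood above Sirt6mKO replicate 1, while the other controls were far below all Sirt6mKO libraries. The means were 709 ± 326 and 232 ± 222 (SD, n = 3 per group), with a log2 difference of 1.94 and a standard error of 0.50, which moved to 2.69 without Ctrl replicate 1 and to 1.40 without Ctrl replicate 3. The controls of *Col1a1* spanned a ratio of 6.01 from lowest to highest, and those of *Col1a2* a ratio of 2.75.

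The same control library was the highest control for 7 of 15 fibroblast markers, among them *Dcn* and *Lum*, small proteoglycans. For the other 8 it was not, among them *Thy1*, where it was the lowest control (155 against 187 and 169). How often this library was the highest control over all genes was not counted, so nothing is read from the 7. *Dcn* had a signal of 77 in Ctrl replicate 1 and of 26 and 34 in the other controls, and *Lum* of 11 against 3 and 2. The sum of the 15 fibroblast markers was 4610 in that library, and 4048 and 3371 in the other controls. The part of these markers in the type I values was not tested.

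**Figure D1:**
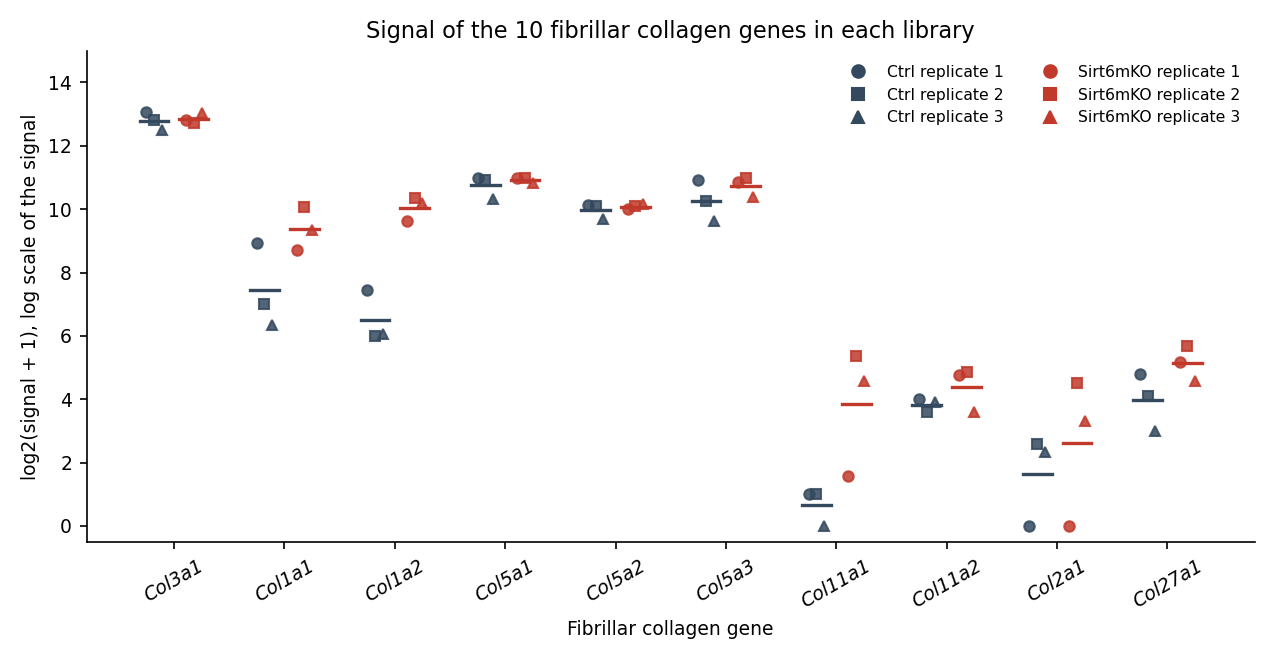
Signal of each fibrillar collagen gene in each library, as log2(signal + 1), with Ctrl in dark and Sirt6mKO in red, a symbol per replicate, and a bar at the mean of the 3 log values of a group. The Sirt6mKO libraries of *Col1a2* (signal 782 to 1299) all stand above its controls (63 to 173), whereas the groups of *Col3a1*, *Col5a1*, *Col5a2* and *Col5a3* overlap.

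Type III collagen was the most abundant transcript of the family and was near equal in both groups. *Col3a1* (ENSMUSG00000026043, chromosome 1, 45311538 to 45349706) had a signal of 7236, 6685 and 8461 in Sirt6mKO and of 8595, 7237 and 5795 in Ctrl. The groups overlapped over most of their range, and both the highest and the lowest library were controls. The means were 7461 ± 909 and 7209 ± 1400 (SD, n = 3 per group), and the log2 difference was 0.06 with a standard error of 0.16. It was -0.09 without Ctrl replicate 3 and 0.20 without Ctrl replicate 1, so that its sign rested on single controls. The standard deviation was 12.2% of the mean in Sirt6mKO and 19.4% in Ctrl, where counting error alone would give 1.06% and 1.22%.

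The chains of type V collagen were abundant in every library, and their groups overlapped. *Col5a1* (chromosome 2, 27886425 to 28039514) had a signal of 2002, 2005 and 1808 in Sirt6mKO and of 2046, 1923 and 1291 in Ctrl. Its log2 difference was 0.17 with a standard error of 0.16. *Col5a2* (chromosome 1, 45374321 to 45503282), whose gene ends 24.6 kb from the end of *Col3a1* on the other strand, had a signal of 1031, 1090 and 1133 in Sirt6mKO and of 1124, 1097 and 828 in Ctrl. Its Sirt6mKO libraries were closer together than those of any other member, with a standard deviation of 4.72% of the mean in Sirt6mKO against 2.77% from counting alone, and its log2 difference was 0.11 with a standard error of 0.13. For both chains the lowest value was that of Ctrl replicate 3, the library with the fewest reads, and without it the log2 difference was -0.03 for each.

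*Col5a3* (chromosome 9, 20770050 to 20815067), the third type V chain, varied more. It had a signal of 1839, 2015 and 1326 in Sirt6mKO and of 1946, 1211 and 789 in Ctrl, so that Ctrl replicate 1 stood among the Sirt6mKO libraries and the other controls below them. The log2 difference was 0.47 with a standard error of 0.26, which became 0.80 without Ctrl replicate 1 and 0.15 without Ctrl replicate 3. Some exons of *Col5a1* overlap a pair of non-coding genes on the other strand, and an exon of *Col3a1* holds a miRNA gene. Reads on more than 1 gene were left out by the authors, and whether the counting used the strand is not given in the sources used here.

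The members known from cartilage were near the limit of detection. *Col11a1* (chromosome 3, 114030540 to 114220718) had a signal of 2, 40 and 23 in Sirt6mKO and of 1, 1 and 0 in Ctrl, from 2, 54 and 24 and from 1, 1 and 0 reads. Its groups did not overlap, but Sirt6mKO replicate 1 was as low as the controls. Against the floor of 3 reads per control library, whose mean signal is 3.75, the Sirt6mKO mean was at least 5.77-fold higher. *Col2a1* (chromosome 15, 97975602 to 98004695) had a signal of 0, 22 and 9 in Sirt6mKO and of 0, 5 and 4 in Ctrl. Its groups overlapped, and its first libraries held no read in either group, which allows a signal of up to 2.50 in Sirt6mKO replicate 1 and 3.69 in Ctrl replicate 1.

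*Col11a2* (chromosome 17, 34039437 to 34066685) had a signal of 26, 28 and 11 in Sirt6mKO and of 15, 11 and 14 in Ctrl, with a log2 difference of 0.57 and a standard error of 0.37. *Col27a1* (chromosome 4, 63214004 to 63334991) had a signal of 35, 50 and 23 in Sirt6mKO and of 27, 16 and 7 in Ctrl, with a log2 difference of 1.18 and a standard error of 0.43. Both overlapped between the groups through Sirt6mKO replicate 3. *Col24a1* had a signal of 2, 4 and 6 in Sirt6mKO and of 1, 5 and 9 in Ctrl, below the minimum mean signal of 5 that the fit used.

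*Col11a1* and *Col2a1* were both highest in Sirt6mKO replicate 2, next in replicate 3 and at or near 0 in replicate 1. Of 8 markers of tenocytes, the cells of tendon, 7 had the same order in Sirt6mKO. The exception was the tendon factor *Scx* (33, 27 and 24), and *Mkx*, another tendon factor, had this order at a level below most controls (1, 10 and 6 in Sirt6mKO and 6, 15 and 13 in Ctrl). Thrombospondin-4 (*Thbs4*) had a signal of 14, 508 and 191 in Sirt6mKO and of 15, 16 and 7 in Ctrl. Fibromodulin (*Fmod*) had a signal of 11, 481 and 163 in Sirt6mKO and of 11, 17 and 7 in Ctrl. Over all 8 tenocyte markers the summed signal was 71, 1158 and 441 in Sirt6mKO and 66 to 87 in Ctrl. *Col1a1* was highest in Sirt6mKO replicate 2 and lowest in replicate 1 as well, and the signal of *Col1a2* in Sirt6mKO replicate 1, 782, was 4.52 times that of its highest control. In that library the tenocyte sum was 71, while the fibroblast markers *Clec3b* and *Cxcl14* stood at 109 and 70, against at most 1 and 12 in Ctrl. The fibroblast markers did not move as one there. *Thy1* stood at 44 against 155 to 187 in Ctrl, *Dcn* at 43 against 26 to 77, and *Lum* at 7 against 2 to 11. The sum of the 15 fibroblast markers was 4867 in that library and 3371 to 4610 in Ctrl. The part of tenocyte and fibroblast RNA in these values was not tested.

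All 10 members passed the minimum mean signal of 5, *Col2a1* and *Col11a1* only through Sirt6mKO (Ctrl means of 3.0 and 0.67). The fitted difference was above 0 for all 10 and for 50.4% of all tested genes. The median log2 difference was 0.77 for the members and 0.002 for all 14227 tested genes. The groups did not overlap for 2 members, *Col1a2* and *Col11a1*, both higher in Sirt6mKO, and for 11.1% of all tested genes in that direction and 10.1% in the other. As the contrast chose the family, nothing is read from these counts or from the median. With 1 library left out, 2 to 5 members did not overlap, all higher in Sirt6mKO. There were 2 without Sirt6mKO replicate 2, Ctrl replicate 2 or Ctrl replicate 3, beside 15.2%, 16.4% and 16.0% of all tested genes. There were 4 without Sirt6mKO replicate 1 or Sirt6mKO replicate 3, beside 15.3% and 15.9%. Without Ctrl replicate 1 there were 5 (*Col1a1*, *Col1a2*, *Col5a3*, *Col11a1* and *Col27a1*), beside 16.6% of all tested genes. The median log2 difference of the members fell to 0.34 without Sirt6mKO replicate 2 and was 0.85 without Ctrl replicate 2.

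Levels of different genes were compared as signal per kb of exon. In Ctrl, *Col3a1* led with 734 ± 143, followed by *Col5a1* (206.5 ± 47.7), *Col5a3* (193 ± 86.0), *Col5a2* (106.0 ± 17.1), *Col1a1* (35.4 ± 33.8) and *Col1a2* (8.07 ± 5.06; SD, n = 3). The other members were between 0.0523 (*Col11a1*) and 1.94 (*Col11a2*). *Col3a1* stood clear of the rest in all libraries, the type V chains overlapped with each neighbour in the order, and *Col5a2* was clear of *Col1a1*. Type I collagen was thus the least abundant of the major types in control MuSCs. By its mean, *Col3a1* ranked 45th and *Col1a2* 10353rd of 25098 genes with a known exon length.

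In Sirt6mKO, *Col3a1* again led with 760.1 ± 92.6, followed by *Col5a3* (253.6 ± 52.6), *Col5a1* (228 ± 13.3), *Col5a2* (113 ± 5.34), *Col1a1* (108 ± 49.7) and *Col1a2* (87.0 ± 21.6; SD, n = 3). The ranges of *Col5a2* and *Col1a1* overlapped here, as did those of *Col1a1* and *Col1a2*. Within the order by mean, each of the first 6 genes kept its place between the groups except *Col5a1* and *Col5a3*, which changed places and overlapped in Ctrl and in Sirt6mKO. *Col1a2* ranked 979th of the 25098 genes in Sirt6mKO. The order depends on the length used. *Col1a2* has 12.4 kb of annotated exon but a longest transcript of 5.35 kb. Per kb of longest transcript its Sirt6mKO mean was 202, above *Col5a2* (164) and *Col1a1* (120), and in Ctrl it was 18.8, still below *Col1a1* (39.1).

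**Figure D2:**
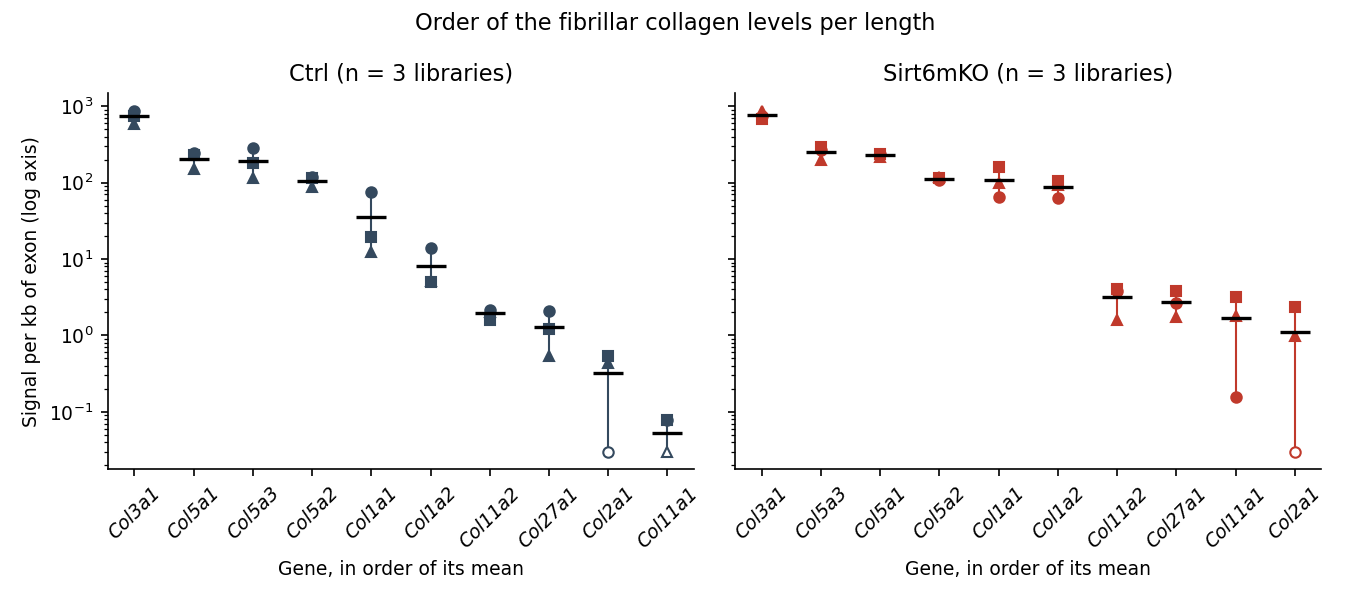
Signal per kb of annotated exon of each member (log axis), in Ctrl on the left and Sirt6mKO on the right, with the 3 libraries as symbols (circle, square and triangle for replicates 1, 2 and 3), their range as a line and their mean as a black bar. Open symbols at the foot mark a signal of 0, and *Col1a2* rises from a mean of 8.07 in Ctrl to 87.0 in Sirt6mKO while *Col3a1* leads both orders.

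The makeup of the fibrillar collagen signal followed from these levels. Type I chains held 8.55%, 16.6% and 12.1% of the summed signal per kb of the 10 genes in Sirt6mKO and 5.47%, 1.91% and 1.82% in Ctrl. Every Sirt6mKO library held a larger share than every control. Type III held 48.8% ± 6.03 in Sirt6mKO and 57.6% ± 3.43 in Ctrl, and the chains of type V held 38.2% ± 4.43 and 39.0% ± 2.02 (SD, n = 3 per group). Types II, XI and XXVII together stayed under 1% in every library, between 0.269% and 0.836%. With longest transcripts as lengths, type I held 13.6% on average in Sirt6mKO and 2.75% in Ctrl. Without regard to length, the 10 genes held 0.574%, 0.603% and 0.625% of the library signal in Sirt6mKO and 0.391% to 0.617% in Ctrl.

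**Figure D3:**
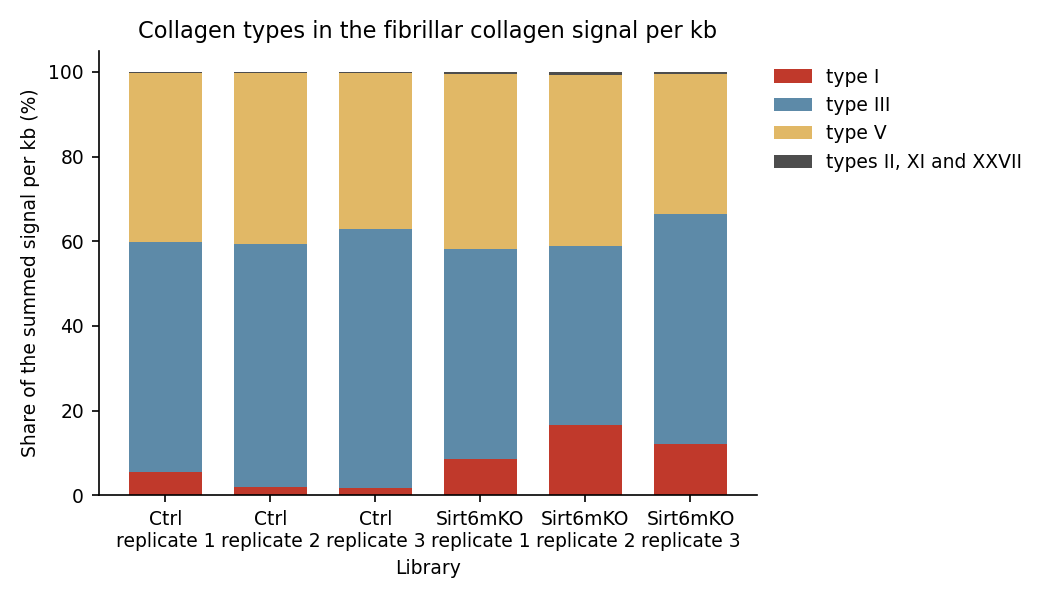
Share of each collagen type in the summed signal per kb of the 10 fibrillar collagen genes, stacked to 100% for each library. Type I (red) holds 8.55% to 16.6% in the Sirt6mKO libraries and 1.82% to 5.47% in the controls, and the shares of types III and V make up nearly all of the rest.

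Type I collagen is mostly built from a pair of *Col1a1* chains and a single *Col1a2* chain, so the balance of the transcripts was followed within each library. Per kb of exon, the ratio of *Col1a2* to *Col1a1* was 0.983, 0.645 and 0.952 in Sirt6mKO and 0.188, 0.260 and 0.424 in Ctrl. The groups did not overlap. The log2 ratio was -0.24 ± 0.34 in Sirt6mKO and -1.87 ± 0.59 in Ctrl (SD, n = 3 per group), a difference of 1.62, which ran from 1.35 without Ctrl replicate 1 to 1.94 without Ctrl replicate 3. The length used shifts every library by the same factor, so the difference between the groups does not depend on it, whereas the ratio itself does (a log2 ratio of 0.83 in Sirt6mKO and -0.80 in Ctrl per kb of longest transcript). In Ctrl replicate 1, where both chains were high, the ratio was the lowest of all libraries.

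Against type III collagen the contrast was larger. The ratio of *Col1a2* to *Col3a1* was 0.0854, 0.153 and 0.109 in Sirt6mKO and 0.0159, 0.00688 and 0.00886 in Ctrl. The difference of the log2 ratios was 3.51, between 3.24 and 3.85 with each library left out in turn. The ratio of *Col1a1* to *Col3a1* was 0.0868 in Sirt6mKO replicate 1 and 0.0847 in Ctrl replicate 1, so that these groups only just stood apart. By contrast, the ratio of *Col5a1* to *Col5a2* lay between 1.76 and 2.19 in all 6 libraries. The ratio of *Col5a2* to *Col3a1*, the neighbours on chromosome 1, lay between 0.134 and 0.167.

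**Figure D4:**
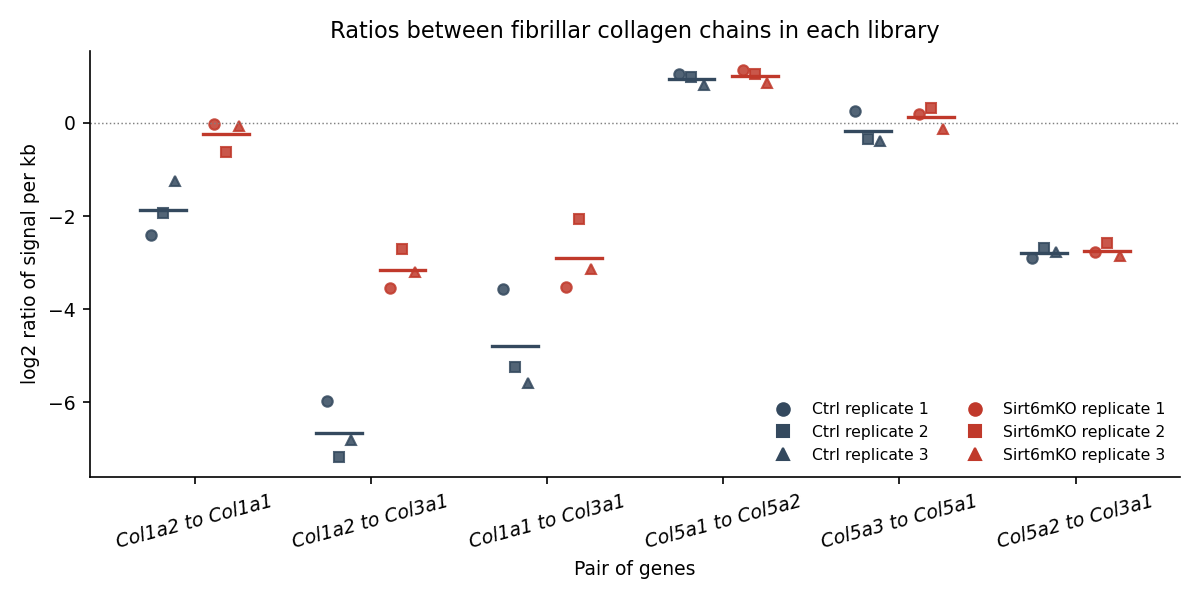
The log2 ratio of the signal per kb of 6 pairs of fibrillar collagen genes in each library, with Ctrl in dark and Sirt6mKO in red, a symbol per replicate and a bar at the group mean. The ratios of *Col1a2* to *Col1a1* and to *Col3a1* are apart between the groups (differences of 1.62 and 3.51), whereas the pairs among types III and V overlap.

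Over the 6 libraries, the log2 signal of *Col1a1* and *Col1a2* had a Pearson r of 0.90, that of *Col5a1* and *Col5a2* an r of 0.90, that of *Col3a1* and *Col5a2* an r of 0.84, and that of *Col1a2* and *Col3a1* an r of 0.32. These values are given as a description, since the libraries share their group difference and their scaling. Among 7388 other genes whose mean signal reached 50, the pattern of *Col1a2* was most like those of *Anxa7* (r = 0.996), an annexin, *Plekha6* (0.996), *Plekhh2* (0.995), *Slc4a7* (0.994), a bicarbonate transporter, and *Avl9* (0.991). Of these, *Plekha6* was closest in size, with a signal of 602, 799 and 783 in Sirt6mKO and of 212, 73 and 88 in Ctrl. The others moved less, with log2 differences of 0.19 (*Avl9*) to 0.79 (*Plekhh2*).

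The genes around the contrasted members were tested with limma-trend across the whole table. To count as higher or lower, a gene had to reach 0.05 after Benjamini-Hochberg adjustment and to differ 2-fold or more, which 1.57% of all tested genes passed as higher and 1.02% as lower in Sirt6mKO. At the adjusted p alone 2.64% were higher and 1.88% lower. An unadjusted p under 0.05, given below for most lists, was reached by 9.97% of all tested genes as higher and by 8.14% as lower. Within 500 kb of *Col1a2* lie 4 protein-coding genes (*Bet1*, *Casd1*, *Sgce*, *Peg10*). None passed both thresholds in limma-trend or in limma voom, 3 had an unadjusted p under 0.05, and their median log2 difference was 0.42. *Peg10*, a paternally expressed gene derived from a retrotransposon, had a signal of 134, 127 and 175 in Sirt6mKO and of 70, 87 and 68 in Ctrl. It was higher at the adjusted p alone (log2 difference 0.94, standard error 0.17, adjusted p = 0.0076, limma-trend), higher in all Sirt6mKO libraries than in any control.

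Near *Col1a1*, 17 of 23 protein-coding genes could be tested, 1 was lower and none higher, and 5 had an unadjusted p under 0.05. The lower gene was *Tac4*, which encodes a tachykinin precursor and begins 308.5 kb downstream, with a signal of 41, 39 and 20 in Sirt6mKO and of 93, 96 and 59 in Ctrl. Its log2 difference was -1.32 with a standard error of 0.28 (adjusted p = 0.020, limma-trend), and it kept an adjusted p of at most 0.05 in 1 of 6 fits with a library left out. Beside *Col5a2*, the window around *Col3a1* held 1 protein-coding gene, *Wdr75*, at a log2 difference of -0.13 (standard error 0.16).

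Of 98 genes that make, modify, bind or regulate fibrillar collagens, 83 could be tested, 3 were higher and 1 lower in Sirt6mKO, and their median log2 difference was 0.10. Collagen biosynthesis, the folding, hydroxylation and export of procollagen in the endoplasmic reticulum, stood near 0 as a list. Of 26 genes 25 were tested, 1 was lower and none higher, with a median of -0.02. The lower gene was *P3h2*, a prolyl 3-hydroxylase, with a signal of 57, 54 and 53 in Sirt6mKO and of 98, 166 and 131 in Ctrl, a log2 difference of -1.22 with a standard error of 0.19 (adjusted p = 0.0036, limma-trend). All 6 fits with a library left out kept it at an adjusted p of at most 0.05. *Sparc*, a collagen-binding matricellular protein and the list's most abundant gene per length, had a signal of 2238, 2061 and 2787 in Sirt6mKO and of 3402, 3058 and 2925 in Ctrl. Its log2 difference of -0.41 did not pass (adjusted p = 0.10, limma-trend). *Serpinh1*, the collagen chaperone HSP47, had a log2 difference of -0.35 (standard error 0.16), and *Larp6*, the binder of the start codon stem-loop, one of 0.12 (standard error 0.22).

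Among 13 genes of procollagen processing and cross-linking, 9 were tested and none passed both thresholds in limma-trend or in limma voom. An unadjusted p under 0.05 was found for 4 higher genes and 1 lower gene, and the median log2 difference was 0.27. Most abundant per length were *Loxl1*, a lysyl oxidase (log2 difference 0.12, standard error 0.11), and *Bmp1*, which removes the C-propeptide (0.27, standard error 0.15).

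The fibril-associated proteins had the highest median of these lists, 0.98 over 15 tested of 18 genes. Among these, *Col14a1* and *Col22a1* passed the minimum mean signal only through Sirt6mKO, with Ctrl means of 1.33 and 0.33. With both thresholds 1 was higher and none lower, and 2 were higher at the adjusted p alone. An unadjusted p under 0.05 was reached by 8 higher and no lower genes. Biglycan (*Bgn*), a proteoglycan that binds type I collagen, had a signal of 1894, 1500 and 1609 in Sirt6mKO and of 1081, 604 and 758 in Ctrl. All Sirt6mKO libraries were above all controls, and the log2 difference was 1.07 with a standard error of 0.18 (adjusted p = 0.0050, limma-trend). It kept an adjusted p of at most 0.05 in 5 of 6 fits with a library left out. *Col12a1*, a collagen that decorates type I fibrils, had a signal of 235, 404 and 282 in Sirt6mKO and of 203, 164 and 104 in Ctrl. It was higher at the adjusted p alone (log2 difference 0.98, standard error 0.23, adjusted p = 0.033, limma-trend), and in 1 of 6 fits with a library left out. *Tnxb*, the tenascin that is most abundant per length in this list, did not pass, with a log2 difference of -0.01 (standard error 0.17). The list holds *Dcn*, *Lum* and *Fmod*, which are fibroblast or tenocyte markers too and did not pass either.

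Collagen receptors and uptake held 2 higher and no lower genes among 8 tested of 10, with a median of 0.40. Both encode α chains of collagen-binding integrins. *Itga11*, the partner of *Itgb1* in a receptor for type I collagen, had a signal of 27, 19 and 18 in Sirt6mKO and of 6, 6 and 4 in Ctrl, a log2 difference of 1.81 with a standard error of 0.36 (adjusted p = 0.013, limma-trend). *Itga1* had a signal of 51, 78 and 92 in Sirt6mKO and of 41, 19 and 34 in Ctrl, a log2 difference of 1.23 with a standard error of 0.29 (adjusted p = 0.033, limma-trend). *Itga11* kept an adjusted p of at most 0.05 in 4 and *Itga1* in 1 of 6 fits with a library left out. The most abundant genes per length were *Itgb1* itself, at a log2 difference of 0.00 (standard error 0.11), and *Mrc2*, an endocytic collagen receptor, at 0.13 (standard error 0.16).

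Of the collagen-degrading enzymes, 3 of 6 genes were tested and none passed both thresholds in limma-trend or in limma voom, with an unadjusted p under 0.05 for 1 higher and 1 lower gene. Gelatinase A (*Mmp2*) was lower at the adjusted p alone, with a signal of 705, 870 and 750 in Sirt6mKO and of 1327, 1516 and 1309 in Ctrl. The groups were far apart, with a log2 difference of -0.84 and a standard error of 0.12 (adjusted p = 0.0017, limma-trend), and all 6 fits with a library left out kept it. *Mmp14*, the membrane collagenase, had a log2 difference of 0.44 and did not pass (adjusted p = 0.058, limma-trend).

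Known regulators of collagen genes had a median near 0. Of 25 genes 23 were tested, and none passed both thresholds in limma-trend or in limma voom, with an unadjusted p under 0.05 for 3 higher and 2 lower genes and a median of 0.03. The groups did not overlap for 4 higher genes, *Ets1*, *Smad7* (log2 difference 0.73), *Tgfb1* (0.74) and *Scx* (0.43), beside 11.1% of all tested genes. They did not overlap for 2 lower genes, *Nfyb* (-0.31) and *Rfx5* (-0.52), beside 10.1%. *Ets1*, an ETS family transcription factor, was higher at the adjusted p alone (log2 difference 0.86, standard error 0.21, adjusted p = 0.033, limma-trend), with a signal of 99, 103 and 137 in Sirt6mKO and of 49, 57 and 81 in Ctrl. It did so in 1 of 6 fits with a library left out. The subunits of NF-Y, which binds CCAAT boxes, had log2 differences of 0.26 (*Nfya*), -0.31 (*Nfyb*) and -0.23 (*Nfyc*), and those of the GC box factors were -0.04 (*Sp1*) and 0.12 (*Sp3*), none past the adjusted p. *Ybx1*, a DNA- and RNA-binding protein, and *Tgfb3*, a TGF-β ligand, were the most abundant per length, at 0.03 (standard error 0.11) and -0.24 (standard error 0.14).

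**Figure D5:**
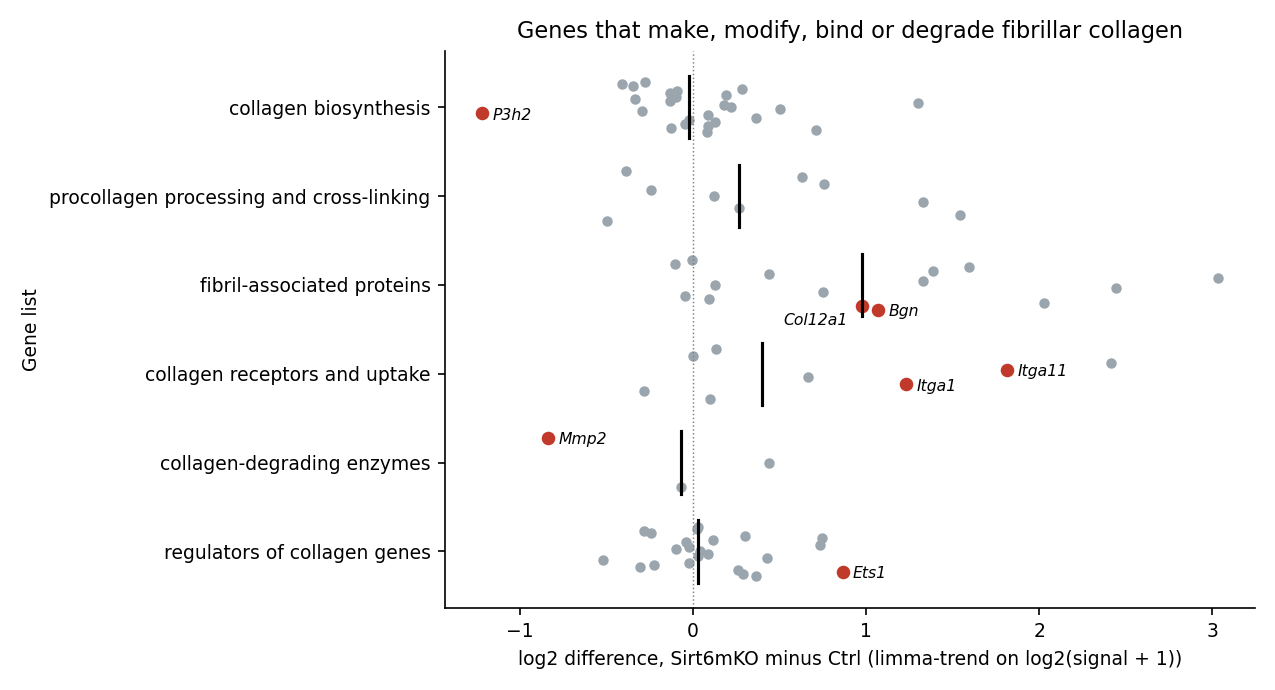
The log2 difference (Sirt6mKO minus Ctrl, limma-trend on log2(signal + 1)) of each tested gene of the 6 lists around collagen, with a black bar at each list's median. Red points with names passed an adjusted p of 0.05, and the bars run from -0.07 (collagen-degrading enzymes) to 0.98 (fibril-associated proteins).

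The identity of the cells was read from marker lists. All 11 MuSC markers were detected in every library, led by *Chodl*, *Pax7* and *Vcam1*, and none passed both thresholds in limma-trend or in limma voom (4 lower at an unadjusted p under 0.05). *Pax7* was lower at the adjusted p alone, with a log2 difference of -0.84 (adjusted p = 0.0041, limma-trend). The summed MuSC signal was 14356 to 15366 in Sirt6mKO and 16412 to 18140 in Ctrl. *Pax7* weighed most on this difference, with 1841, 2307 and 1810 in Sirt6mKO and 4066, 3449 and 3150 in Ctrl. Only Sirt6mKO carries the Pax7-ICNCre allele, in which Cre is under control of the *Pax7* promoter. The part of this allele in the *Pax7* values was not tested. Of the 11 markers, 4 had a log2 difference above 0 and 7 below.

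Of 15 fibroblast markers 11 were tested, 3 were higher and 1 lower, and the summed signal was 4777 to 4876 in Sirt6mKO and 3371 to 4610 in Ctrl, most of it from *Gsn*, *Dpt* and *Pdgfrl*. The higher genes were *Clec3b*, with 109, 22 and 78 in Sirt6mKO and 1, 0 and 0 in Ctrl (adjusted p = 0.00020, limma-trend, at least 18.6-fold), *Pdgfra*, the receptor that marks interstitial fibroblasts, with 14, 22 and 38 against 9, 4 and 2 (adjusted p = 0.027), and *Cxcl14*, with 70, 42 and 32 against 10, 12 and 0 (adjusted p = 0.034). With 1 library left out, *Clec3b* kept an adjusted p of at most 0.05 in 6 of 6 fits, *Cxcl14* in 3 and *Pdgfra* in 1. *Thy1* was lower, with 44, 37 and 24 in Sirt6mKO and 155, 187 and 169 in Ctrl (adjusted p = 9.9e-05, limma-trend). At an unadjusted p under 0.05, 7 of the 11 tested fibroblast markers were higher and 1 was lower. *Ly6a*, which encodes the depleted Sca1, was at 0 to 2 in every library. The part of fibroblast RNA in the collagen values was not tested.

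Of the tenocyte markers, all 8 were tested and none passed in limma-trend or in limma voom, with 4 higher at an unadjusted p under 0.05. Apart from *Thbs4* and *Fmod*, the most abundant was *Scx*, at 24 to 33 in Sirt6mKO and 16 to 23 in Ctrl. Myofiber markers had 2 higher genes, *Acta1* (adjusted p = 0.035, limma-trend) and *Mylpf* (adjusted p = 0.018, limma-trend). *Actn3* was higher at the adjusted p alone (adjusted p = 0.033, limma-trend). At an unadjusted p under 0.05, 8 of the 10 were higher and none lower. The sum of 10 markers, led by *Actn3*, *Acta1* and *Myh4*, was 2192, 2238 and 922 in Sirt6mKO and 640 to 888 in Ctrl. Neither *Acta1* nor *Mylpf* passed both thresholds in limma voom. With 1 library left out, an adjusted p of at most 0.05 was kept in 1 of 6 fits for *Acta1* and for *Actn3*, and in 3 for *Mylpf*.

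The lists of mural cells (6 tested of 7, led by *Notch3*, *Cspg4* and *Rgs5*), endothelial cells (2 of 8, *Tek* and *Pecam1*, with *Cdh5* next), Schwann cells (4 of 7, with *Ngfr* and *Mbp* among the most abundant), immune cells (1 of 7, *Cd68*, with *Lyz2* and *Csf1r* next) and cartilage and bone (1 of 7, *Sox9*, with *Matn3* and *Runx2* next) held no gene past both thresholds in limma-trend or in limma voom. At an unadjusted p under 0.05, the mural list had 1 higher and 1 lower gene, the endothelial and Schwann lists 1 lower gene each, and the others none. Their summed signal was 3798 to 5050 in Sirt6mKO and 2230 to 3415 in Ctrl for mural, 373 to 450 and 467 to 575 for endothelial, 103 to 163 and 153 to 201 for Schwann, 37 to 77 and 36 to 65 for immune, and 83 to 116 and 50 to 117 for cartilage and bone. Most of the mural sum was *Notch3*, with 4104, 4873 and 3688 in Sirt6mKO and 3289, 2967 and 2112 in Ctrl. Of the 6 tested mural genes, 4 had a log2 difference above 0 and 2 below. Most of the endothelial sum was *Tek*, with 349, 412 and 367 in Sirt6mKO and 454, 562 and 430 in Ctrl. *Cldn5* of endothelial cells, *S100b* of Schwann cells and *Acan* and *Ibsp* of cartilage and bone were at 0 in most libraries.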

How the data were processed

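RNA-seq of 3 Sirt6mKO and 3 Ctrl MuSC libraries was used. Per the labels, 1 to 5 ng of total RNA was depleted of ribosomal RNA with RiboGone, made into SMARTer stranded libraries and read as single ends of 75 bp. The methods of the study name RiboMinus and an Ion Total RNA-Seq kit. The submitters' processing notes list Trimmomatic 0.39, STAR 2.7.10a, Picard 2.25.5, featureCounts 2.0.2 and DESeq2 1.30.1 with mm10 (GRCm38), while the methods name Reaper for trimming and other versions. Per the methods, reads on more than 1 gene or region were left out.

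The deposited signal carries no unit. It holds whole numbers that the authors made by dividing reads by a factor per library and rounding, as read from unoccupied low values (11 of those from 1 to 60 in Ctrl replicate 1, 27 in Ctrl replicate 3) and near equal totals (2272307 to 2369973). The factors recovered were 0.558 to 1.372, all low values (100.0%) could be reached from whole reads, and reads were recovered by multiplying back, within rounding.

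Genes whose mean signal reached 5 were fitted as log2(signal + 1) with limma-trend (limma 3.58.1, R 4.3.3), with Benjamini-Hochberg adjustment over all 14227. Fold changes are on that scale, which understates those of low genes. The labels do not tie the libraries to separate mice, so p-values measure the spread between libraries only. The fit was tested on simulated data. Lengths, positions (identifiers found for 99.7% of genes) and coding sequences came from GENCODE for GRCm38, promoters from RefSeq. Tables were made in Python 3.11.15 with numpy 2.4.6, pandas 2.3.3 and matplotlib 3.10.9.

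The members, the lists and the rules were chosen with earlier results of these data known. Named genes are the members, *Col24a1*, *Sirt6*, list genes at an adjusted p of at most 0.05 (markers also at 2-fold, at most 5), the 2 most abundant per kb of each collagen list, the 3 most abundant of each marker list, the 5 genes most like *Col1a2* and the neighbours that passed the adjusted p. The other neighbours of *Col1a2* and *Col3a1*, *Larp6*, *Dcn*, *Lum*, *Fmod*, *Mkx*, *Ly6a*, the NF-Y and Sp genes and the markers near 0 were chosen after their values were seen. So were *Col14a1*, *Col22a1*, *Smad7*, *Tgfb1*, *Rfx5* and *Actn3* as a gene at the adjusted p alone. Alternatives were other scalings, filters and pseudocounts, robust empirical Bayes, limma voom on the recovered reads, the replicate number as a block, longest transcripts as lengths, and leaving out each library. Some items that these rules cover are not reported here.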

Additional observations from a re-analysis of the deposited data

How the results depend on the processing

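The 2-fold calls over all genes (368) stayed within 1.5 times under the scalings, pseudocounts, robust empirical Bayes, limma voom (371) and the other filters, and fell to 128 with a mean signal of at least 50, where fewer genes were tested. With 1 library left out they ran from 173 (without Sirt6mKO replicate 1) to 445, and were 179 without Sirt6mKO replicate 2. Same-numbered libraries deviated together weakly (r = 0.023, 0.066 and 0.188), with r from -0.129 to 0.073 for the other pairs. The main fit used no pairing, and with 3 libraries per group these values cannot exclude one. A fit with a replicate block gave 435 calls and 2 in place of 1 fibril-associated gene. The collagen receptor genes numbered 1 with no filter and 1 with a mean of at least 50, in place of 2. They numbered 3 with a mean of at least 1, a pseudocount of 5, limma voom and the replicate block. With 1 library left out, calls ran from 0 to 2 for fibril-associated proteins, from 0 to 3 for collagen receptors, from 0 to 1 for regulators and for neighbours, and stayed at 1 for biosynthesis and 0 for processing and degrading enzymes. The receptor calls were 0 without Sirt6mKO replicate 1 and without Sirt6mKO replicate 2, and *Bgn* lost its call without Ctrl replicate 2 (0.87, under 2-fold) and without Sirt6mKO replicate 1 (adjusted p = 0.052, limma-trend). *Tac4* kept its call only without Ctrl replicate 3, and without Sirt6mKO replicate 2 or Ctrl replicate 2 the neighbour counted was *Peg10* (1.03 and 1.05). For these counts the cause was not tested. With longest transcripts, 5 of 10 members kept their place in the Sirt6mKO order of levels and 8 of 10 in the Ctrl order. The median difference of the members was 0.32 over those whose mean signal reached 50, and ran from 0.34 to 0.85 with 1 library left out, when the ratio differences ran from 1.35 to 1.94 (*Col1a2* to *Col1a1*) and 3.24 to 3.85 (*Col1a2* to *Col3a1*). *Col11a1*, with its controls at or under 3 reads, moved from 3.18 to 4.66 with a pseudocount of 0.1 and to 1.87 with one of 5. *Pdgfra* and *Cxcl14* missed the adjusted p with no filter (0.059 and 0.070, limma-trend). At 1267027 to 3209964 reads per library, genes with a few reads are limited by counting, among them *Col24a1* and, in Ctrl, *Col2a1* and *Col11a1*. In Sirt6mKO the standard deviation was 107% of the mean for *Col2a1* and 87.85% for *Col11a1*. Counting error alone would give 27.39% and 19.36% there.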
